A study of Mus musculus with 8 samples.

Results

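The Krüppel-like factors described here are 10 genes, Klf2, Klf3, Klf4, Klf5, Klf6, Klf7, Klf9, Klf10, Klf13 and Klf15, found by symbol among the 17276 genes that the files list. All 10 passed the filter on low counts and were among the 11747 genes tested. RNA was sequenced from hepatocytes of male wild-type (WT) C57BL/6N mice aged 6 to 8 weeks, which were either static or under shear stress, the drag of moving fluid on a cell surface. Each group had 4 libraries, and the replicate numbers 1 to 4 are shared between groups. The labels give neither magnitude nor duration of the stress nor a culture format, and do not say if replicates are separate animals or cultures. The p-values thus rest on the spread between these libraries alone, and that spread may be technical.

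Krüppel-like factors (KLFs) are transcription factors with zinc fingers near the carboxyl end that bind GC-rich and CACCC sequences, and they share this fold with the Sp factors. In vascular endothelium, laminar flow raises Klf2 and Klf4 through a kinase chain of MEKK, MEK5 and ERK5 and the MEF2 factors. Both proteins then raise vasoprotective genes such as Nos3 and Thbd and lower genes such as Edn1 and Angpt2. In liver, other members are better known for responses to hormones and nutrients (Klf9, Klf10, Klf15) or to injury (Klf6). The comparison asks whether hepatocytes under shear stress show the endothelial pattern of KLF induction.

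No member was called higher under shear stress. Klf4, Klf6 and Klf9 fell, by 2.48-fold, 2.04-fold and 1.92-fold, and the other 7 were not called at an adjusted p of 0.05 (edgeR quasi-likelihood test, Benjamini-Hochberg adjustment over all tested genes). Of all tested genes 48.6% were called, 23.7% lower and 24.9% higher, so a count of 3 of 10 lower is near the background. This main fit did not pair libraries of the same replicate number. With the replicate numbers as a block in edgeR, Klf5 was also called (adjusted p = 0.000395), which made 4 of 10 lower and 0 higher. In that fit 61.1% of all genes were called, 31% lower and 30.1% higher. DESeq2 also called 4 lower and 0 higher, against 45% of the 14440 genes it tested, 23% lower and 22% higher. No member was higher at an unadjusted p below 0.05 in edgeR (0 of 10), against 28.4% of all tested genes. The members' median log2 fold change was -0.39, against -0.01 over all genes tested. As the RNA is bulk, fewer cells of a type and less RNA per cell cannot be told apart.

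Levels are normalised read counts in CPM, scaled with TMM factors, with SD over n = 4 libraries. Log2 fold changes are of shear stress over static, with standard errors. Depth ran from 15067056 to 17935566 estimated counts per library, at which 3 counts, the limit that a count of 0 allows, equal 0.157 to 0.227 CPM. This limit covers counting error only. Scaling by upper quartiles, library totals or TPM moved the median of all genes by 0.14 to 0.23 on the log2 scale and the share of calls that were higher from 51.2% to between 64.8% and 75.5%. Klf4, Klf6 and Klf9 were called lower in each of the 17 alternative analyses.

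Markers of hepatocytes and of other liver cells were summed per library. Hepatocyte markers summed to 78310 to 99330 CPM in static and 55030 to 71160 CPM in shear stress libraries. Of the 10, 6 were lower, against 23.7% of all tested genes, and 9 with the replicate block, against 31%. With library totals 1 was lower, against 1539 of 11747 genes. Leaving out shear stress replicate 4 gave 3 lower, against 2224 of 11894 genes. Ttr, a thyroid hormone carrier, Alb and Fgb had the smallest p (edgeR adjusted p = 0.00648, 0.0121 and 0.0174). Other scalings or limma on TPM took the call from Alb in 4 of 17 alternatives (adjusted p up to 0.136) and from Fgb in 5 (up to 0.155). Of the listed markers, 6 of 7 for Kupffer cells, 5 of 8 for stellate cells, 2 of 3 for lymphocytes and 1 of 4 for bile duct cells were under 1 CPM in every library. In static and shear stress libraries, in that order, the macrophage gene Cd68 was at 40.5 ± 15.4 and 36.7 ± 16.7 CPM, the stellate gene Reln at 4.37 ± 3.18 and 4.11 ± 1.83 CPM, and Spp1, the leading bile duct marker, at 589 ± 499 and 783 ± 620 CPM, none of them called. With the replicate block Spp1 was higher (adjusted p = 0.0467), as was the bile duct marker Epcam (0.0499), and the stellate marker Dcn was lower (0.022). Leaving out static replicate 3 made Sox9, of the bile duct list, lower (adjusted p = 0.0172). The B cell gene Cd79a fell from 1.93 ± 0.174 to 0.119 ± 0.201 CPM (edgeR adjusted p = 0.00172), and DESeq2 and the fits without a filter also called the leukocyte gene Ptprc lower, which made 2 of 3. In the same order, the summed Kupffer markers were 22.4 to 55.9 and 16.8 to 56.7 CPM, the stellate markers 5.88 to 12.3 and 6.75 to 9.65 CPM, the lymphocyte markers 2.28 to 2.71 and 0 to 0.418 CPM, and the bile duct markers 131 to 1318 and 215 to 1704 CPM. Nearly all of the bile duct sum was Spp1 and Sox9, and nearly all of the Kupffer sum was Cd68. Krt19 was at 0.015 ± 0.03 and 0.156 ± 0.126 CPM and Epcam at 0.487 ± 0.227 and 0.996 ± 0.441 CPM. Krt7 and Cftr, also of the bile duct list, were not among the genes listed. The part of these cell types in the KLF values was not tested.

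RefSeq promoter windows of GRCm38.p6 were found for 8 of the 10 members, all but Klf5 and Klf10. The 250 bases before the RefSeq start are shown for Klf2 and Klf4, the genes on which endothelial flow acts, and for Klf6 and Klf9, which fell with Klf4. Capitals mark matches, on either strand, to the motifs searched, which were the KLF box CACCC, the CRE TGACGTCA, the AP-1 site TGANTCA, the E-box CACGTG, the TEAD site GGAATG, the TATA box TATAAA, MEF2 and CArG. The windows are chr8:72318812-72319061 (plus strand), chr4:55532476-55532725 (minus strand), chr13:5861239-5861488 (plus strand) and chr19:23140976-23141225 (plus strand), printed 5′ to 3′.
Klf2: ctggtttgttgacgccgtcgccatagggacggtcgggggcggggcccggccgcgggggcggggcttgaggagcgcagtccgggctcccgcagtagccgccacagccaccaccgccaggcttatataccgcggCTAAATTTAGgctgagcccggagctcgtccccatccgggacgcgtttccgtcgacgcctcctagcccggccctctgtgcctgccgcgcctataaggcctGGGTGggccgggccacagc
Klf4: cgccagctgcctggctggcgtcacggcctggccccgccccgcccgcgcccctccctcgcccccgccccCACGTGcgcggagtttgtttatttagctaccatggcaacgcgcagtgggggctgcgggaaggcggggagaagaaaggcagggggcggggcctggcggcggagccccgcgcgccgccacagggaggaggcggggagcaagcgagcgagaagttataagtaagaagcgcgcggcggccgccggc
Klf6: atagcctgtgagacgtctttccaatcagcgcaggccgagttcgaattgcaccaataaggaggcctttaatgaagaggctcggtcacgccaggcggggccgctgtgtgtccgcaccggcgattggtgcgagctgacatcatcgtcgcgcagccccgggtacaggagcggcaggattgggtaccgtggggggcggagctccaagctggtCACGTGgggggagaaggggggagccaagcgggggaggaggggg
Klf9: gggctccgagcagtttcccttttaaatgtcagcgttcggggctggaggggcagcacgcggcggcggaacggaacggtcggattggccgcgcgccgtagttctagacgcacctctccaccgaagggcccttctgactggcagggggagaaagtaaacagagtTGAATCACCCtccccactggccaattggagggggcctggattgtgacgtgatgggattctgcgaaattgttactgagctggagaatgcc

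The Klf2 window held 1 MEF2 match, 118 bases before the start, and 1 CACCC box, 19 bases before it. Of 32851 windows of this length, 2.92% held a MEF2 match and 52% a CACCC box. Klf4 and Klf6 each had 1 E-box, 182 and 43 bases before the start, against 6.02% of windows with any, and neither had a CACCC box. In Klf9 an AP-1 match 89 bases before the start overlapped a CACCC box, and 6.75% of windows held an AP-1 match. The windows of Klf3, Klf7, Klf13 and Klf15 held 5, 3, 1 and 1 CACCC boxes, and Klf15 also 2 E-boxes. For Klf7 and Klf15 the starts used, 64121389 and 90462576, and their windows lie inside the gene spans given below. None of the 8 held a CRE, TEAD, TATA or CArG match (1.55%, 12.6%, 12.4% and 1.47% of all windows). These are matches of letters and not measured sites.

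Klf2 is the factor whose induction by flow is best known in endothelial cells (chromosome 8, 72319062 to 72321654, Gene ID 16598, GRCm38 as for all positions here). It was at 6.16, 1.22, 2.88 and 4.5 CPM in static replicates 1 to 4 and at 3.12, 3.5, 1.1 and 3.17 CPM in the shear stress replicates. The groups overlapped, and the shear stress library was the lower of its pair in replicates 1, 3 and 4 and the higher in replicate 2. The means were 3.69 ± 2.12 and 2.72 ± 1.1 CPM, with a log2 fold change of -0.44 ± 0.49 (edgeR adjusted p = 0.485). The 95% interval ran from -1.54 to 0.66, or from 0.345-fold to 1.58-fold, so a rise beyond 1.58-fold lies outside it. These values rest on 19 to 100 estimated counts per library.

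Endothelial markers were present at low levels. The 10 markers summed to 40.6, 12.9, 22.4 and 19.8 CPM in static and to 33.6, 9.5, 12.5 and 11.9 CPM in shear stress replicates 1 to 4, with replicate 1 highest in both groups. Vwf, Clec4g and Emcn were under 1 CPM in every library. Pecam1 fell from 10.02 ± 4.24 to 1.87 ± 1.38 CPM (edgeR adjusted p = 0.00324), and with the replicate block Tie1 was also lower (adjusted p = 0.0192). Egfl7 rose from 1.73 ± 0.507 to 3.14 ± 0.447 CPM (edgeR adjusted p = 0.0216), a call lost on leaving out static replicate 1, static replicate 2 or shear stress replicate 3 (adjusted p between 0.0517 and 0.0534). The tested markers went in both directions. Pecam1 and Tie1 had log2 fold changes of -2.42 and -0.66. Egfl7, Cdh5, Stab2, Lyve1 and Kdr had 0.86, 0.73, 0.43, 0.38 and 0.33, of which only Egfl7 was called. The middle value of the 7 tested markers was 0.38, so the lower sums do not stand for the list as a whole. The part of endothelial RNA in the levels of Klf2 and Klf4 was not tested.

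Klf4, also flow-induced in endothelium and a regulator of epithelial differentiation, changed in the direction opposite to its endothelial response (chromosome 4, 55527137 to 55532475, Gene ID 16600). Static replicates 1 to 4 had 11.4, 13.8, 9.17 and 15.2 CPM and shear stress replicates 5.5, 2.4, 5.02 and 7.13 CPM. Every shear stress library was below every static library, as for 21.5% of all tested genes, and 45.3% had groups that did not overlap in either direction. The mean fell from 12.4 ± 2.68 to 5.01 ± 1.96 CPM, with a log2 fold change of -1.31 ± 0.30 and a 95% interval from -1.99 to -0.64 (edgeR adjusted p = 0.00613). Replicate 2 had the largest difference within a pair, -2.47 on the log2 scale, and the other pairs lay between -1.08 and -0.85.

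**Figure D1:**
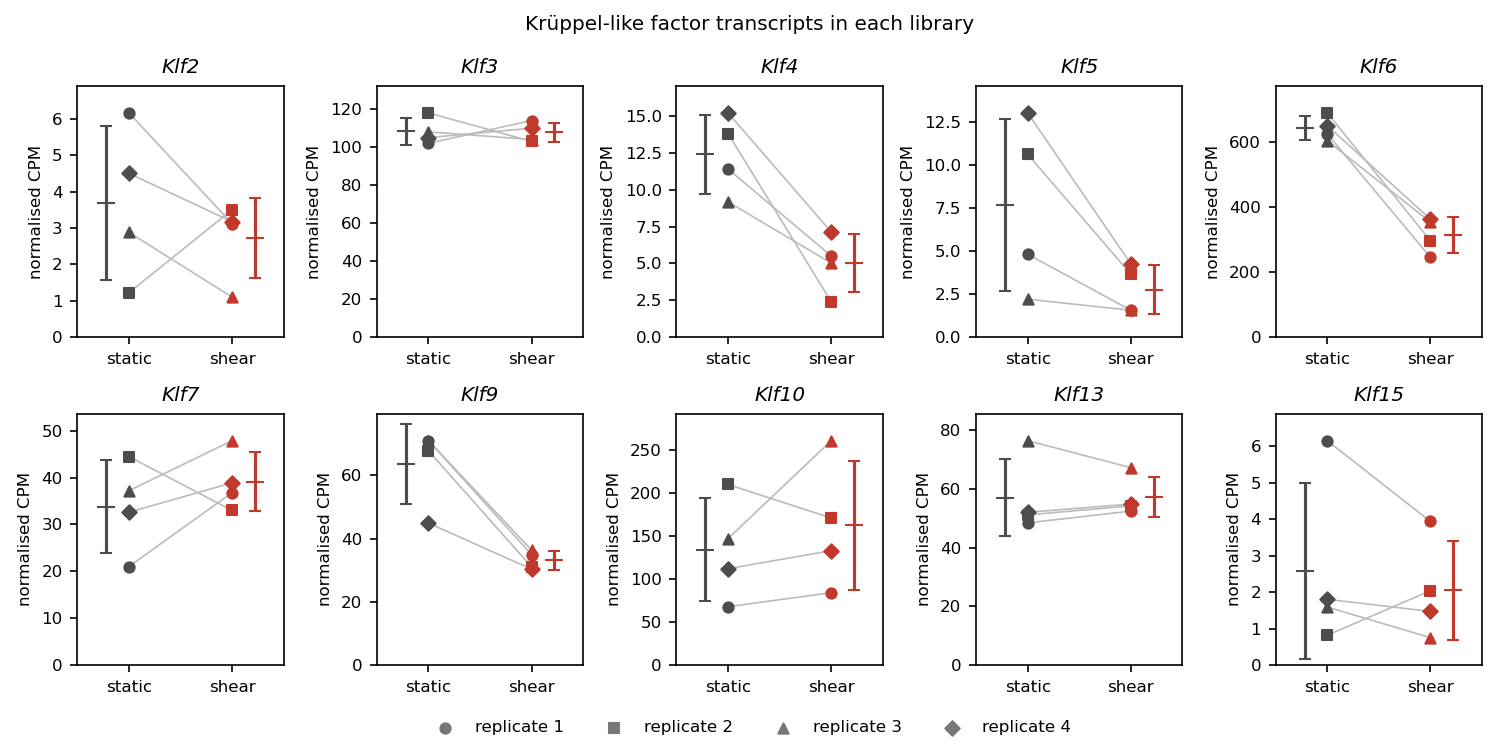
Normalised CPM of the 10 Krüppel-like factors in the 4 static (grey) and 4 shear stress (red) libraries, with a panel and a linear axis from 0 for each gene, symbols for replicate numbers, lines joining libraries of the same number, and bars for mean ± SD. For Klf4, Klf6 and Klf9 all shear stress libraries lie below all static libraries, as for 21.5% of all tested genes. The Klf2 lines run in both directions.

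Klf6, an early gene of liver injury and growth control, fell by a similar factor at a much higher level (chromosome 13, 5861489 to 5870393, Gene ID 23849). It was at 624, 688, 603 and 649 CPM in static and at 245, 296, 353 and 362 CPM in shear stress replicates. The highest shear stress library was well below the lowest static library. The mean fell from 641 ± 36.2 to 314 ± 54.4 CPM (log2 fold change -1.03 ± 0.13, 95% interval -1.32 to -0.74, edgeR adjusted p = 0.000284). Within pairs the log2 difference lay between -1.35 and -0.78.

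Klf5, which drives proliferation of epithelial cells, differed several-fold between replicate numbers (chromosome 14, 99298691 to 99313412, Gene ID 12224). Static libraries had 4.81, 10.6, 2.2 and 13 CPM and shear stress libraries 1.56, 3.65, 1.56 and 4.25 CPM. Replicates 2 and 4 were highest in both groups, and the groups overlapped. Each shear stress library was below its static partner, as for 35.2% of all tested genes, while 33.7% were higher in all 4 pairs. The log2 fold change was -1.48 ± 0.56 (95% interval -2.73 to -0.22, edgeR adjusted p = 0.0525). The adjusted p was 0.000395 with the replicate block, 0.0139 with DESeq2 and 0.0145 without static replicate 3, each below the threshold.

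Klf7, a factor best studied in neurons and fat cells, was at 21, 44.5, 37.2 and 32.6 CPM in static and 36.8, 33, 47.9 and 38.9 CPM in shear stress replicates (chromosome 1, 64029448 to 64122345, Gene ID 93691). The shear stress library was higher in 3 of 4 pairs, and the groups overlapped. The log2 fold change of 0.21 ± 0.21 was not called (95% interval -0.27 to 0.69, edgeR adjusted p = 0.438).

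Klf10, induced early by TGF-β and by glucose and the clock in liver, also differed several-fold between replicate numbers (chromosome 15, 38291464 to 38300711, Gene ID 21847). Static libraries had 67.7, 210, 147 and 112 CPM and shear stress libraries 84.1, 171, 261 and 133 CPM. Replicate 1 was lowest in both groups and replicates 2 and 3 were highest in both. The log2 fold change was 0.27 ± 0.40 (95% interval -0.64 to 1.18, or 0.643-fold to 2.26-fold, edgeR adjusted p = 0.601). Without shear stress replicate 3 it was -0.05, so its sign rests on that library.

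Klf9, a target of glucocorticoid and thyroid hormone receptors, fell in every pair (chromosome 19, 23141226 to 23168129, Gene ID 16601). It was at 71, 67.8, 71 and 44.9 CPM in static and 34.9, 31, 36.3 and 30.3 CPM in shear stress replicates. Static replicate 4 stood below the other static libraries but above all shear stress libraries. The mean fell from 63.7 ± 12.6 to 33.1 ± 2.91 CPM (log2 fold change -0.94 ± 0.15, 95% interval -1.29 to -0.60, edgeR adjusted p = 0.00101).

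Klf15, which raises gluconeogenic and amino acid-degrading genes in fasted liver, had 13 to 100 estimated counts per library (chromosome 6, 90461043 to 90491803, Gene ID 66277). Static replicates had 6.16, 0.814, 1.59 and 1.8 CPM and shear stress replicates 3.94, 2.04, 0.75 and 1.47 CPM. Replicate 1 was highest in both groups, as it was for the summed endothelial, Kupffer and bile duct markers. The hepatocyte markers Apoa1 and Cyp2e1 were also highest in replicate 1 of both groups, while the summed hepatocyte markers were highest in replicate 3 of both. What sets the Klf15 level of replicate 1 was not tested. The log2 fold change of -0.34 ± 0.66 was not called (95% interval -1.83 to 1.14, edgeR adjusted p = 0.693), and without static replicate 1 it was 0.55.

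Klf3, a repressor that recruits CtBP proteins, had the narrowest interval of the members (chromosome 5, 64803521 to 64832901, Gene ID 16599). It was at 102, 118, 108 and 105 CPM in static and 114, 103, 104 and 110 CPM in shear stress replicates, and the groups overlapped. Its log2 fold change was -0.01 ± 0.08 (95% interval -0.19 to 0.18, edgeR adjusted p = 0.948), and the sign turned with the scaling.

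Klf13, which recruits the Sin3 corepressor, was at 48.4, 51.1, 76.4 and 52 CPM in static and 52.4, 54.2, 67.2 and 54.8 CPM in shear stress replicates (chromosome 7, 63886351 to 63938915, Gene ID 50794). Replicate 3 was highest in both groups. The log2 fold change was 0.00 ± 0.16 (95% interval -0.35 to 0.36, edgeR adjusted p = 0.983), with a sign that turned with the scaling. The protein-coding gene E030018B13Rik overlaps Klf13 on the other strand in the GENCODE M21 annotation, and the strand setting of the counts is not given in the sources used here.

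Abundance was compared between genes in the deposited TPM, a level per transcript length. In static libraries the order was Klf6 (200 ± 23.6 TPM), Klf10 (61 ± 31), Klf3 (55.7 ± 7.32), Klf9 (18.6 ± 3.93), Klf13 (11.4 ± 2.45), Klf7 (6.83 ± 2.71), Klf5 (6.58 ± 4.4), Klf4 (5.53 ± 1.36), Klf2 (2.89 ± 1.58) and Klf15 (1.34 ± 1.2 TPM). Among neighbours in this order, the libraries of Klf6 and Klf10 and those of Klf3 and Klf9 did not overlap, and all others did. Under shear stress Klf6, at 115 ± 21.5 TPM, overlapped Klf10, at 84.9 ± 41.4 TPM. Klf3 followed at 61 ± 3.15 TPM, Klf13 at 13.5 ± 2.0 TPM, Klf9 at 11.3 ± 1.1 TPM and Klf7 at 9.6 ± 1.86 TPM. Klf5, Klf4, Klf2 and Klf15 had 2.75 ± 1.43, 2.57 ± 0.914, 2.54 ± 1.06 and 1.23 ± 0.747 TPM, each overlapping its neighbour. Gaps under shear stress lay between Klf3 and Klf13 and between Klf7 and Klf5.

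The TPM of the 10 genes summed to 313 to 464 in static and 222 to 375 in shear stress libraries. Klf6 made up 54.5% ± 4.07 of this sum in static and 38% ± 3.43 in shear stress libraries, without overlap. Klf10 made up 15.9% ± 5.57 and 26.7% ± 8.07, and Klf3 15.1% ± 0.614 and 20.7% ± 4.19. The endothelial flow factors were small shares, with Klf2 at 0.843% ± 0.543 and 0.892% ± 0.423 and Klf4 at 1.5% ± 0.312 and 0.884% ± 0.388.

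**Figure D2:**
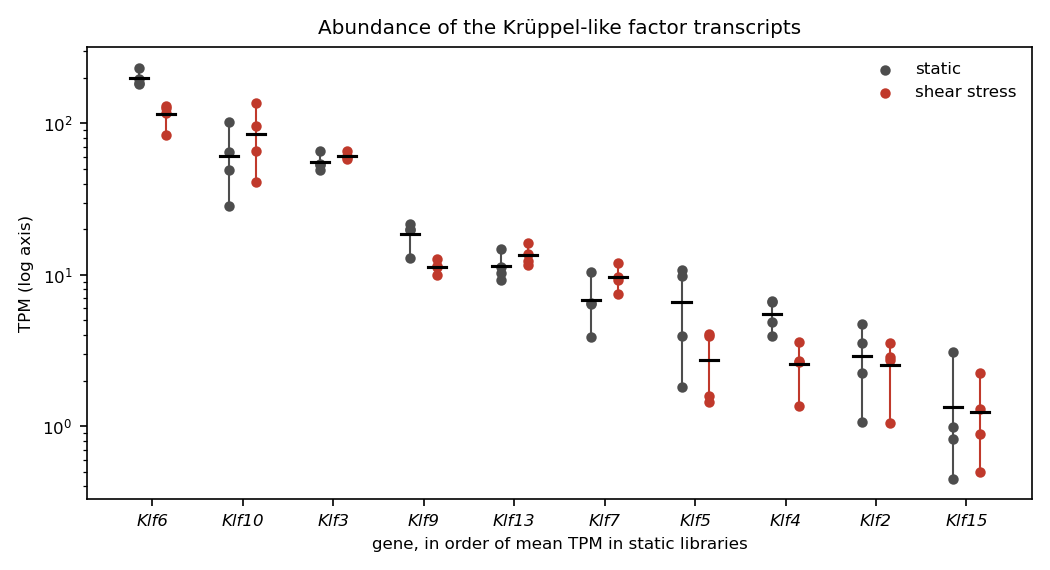
Deposited TPM of the 10 members on a log axis, in order of the static mean, with points for the 4 static (grey) and 4 shear stress (red) libraries, vertical lines from the lowest to the highest library, and black bars for means. The mean of Klf6 is 200 TPM in static and 115 TPM in shear stress libraries, where it overlaps Klf10, and Klf15 has the lowest mean in both groups.

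Of the 7 other KLF genes, 3 were tested and 2 fell, where 23.7% of all tested genes did. Klf11, which like Klf10 is a TGF-β-inducible repressor, was at 38, 44.6, 43.8 and 35.4 CPM in static and 12.7, 14.6, 18.7 and 11.9 CPM in shear stress replicates, a fall of 2.79-fold without overlap (edgeR adjusted p = 0.000132). Klf12, a repressor that recruits CtBP, fell from 25.2 ± 4.91 to 13.7 ± 3.16 CPM (edgeR adjusted p = 0.00536, and between 0.089 and 0.112 with limma on log2 TPM, where the call was lost). Klf16, named after its value was seen, was at 25.1 ± 4.97 and 25.8 ± 2.96 CPM and was not called. The remaining 4 were under 1 CPM in every library, and Klf14 had 4, 6, 9 and 0 estimated counts in static replicates and 0 in each shear stress library, which allows up to 3. Klf14 did not pass the filter on low counts, and it was called lower with DESeq2 (adjusted p = 0.0113) and with edgeR without the filter (0.0215), which made 3 lower. Over all genes 23% were lower with DESeq2, and 3130 of 17102 with edgeR without the filter.

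Of the 9 Sp factors, which bind similar GC-rich boxes, 4 were tested, 2 fell and 1 rose. Of all tested genes 23.7% fell and 24.9% rose. Sp3 fell from 69.2 ± 5.39 to 46.5 ± 5.06 CPM and Sp4 from 7.29 ± 1.78 to 2.92 ± 0.216 CPM (edgeR adjusted p = 0.00214 and 0.00112). Sp2 rose from 11.2 ± 2.43 to 18.8 ± 0.395 CPM (edgeR adjusted p = 0.00426), and Sp1 was not called. The filter of the limma fits on TPM left out Sp4.

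**Figure D3:**
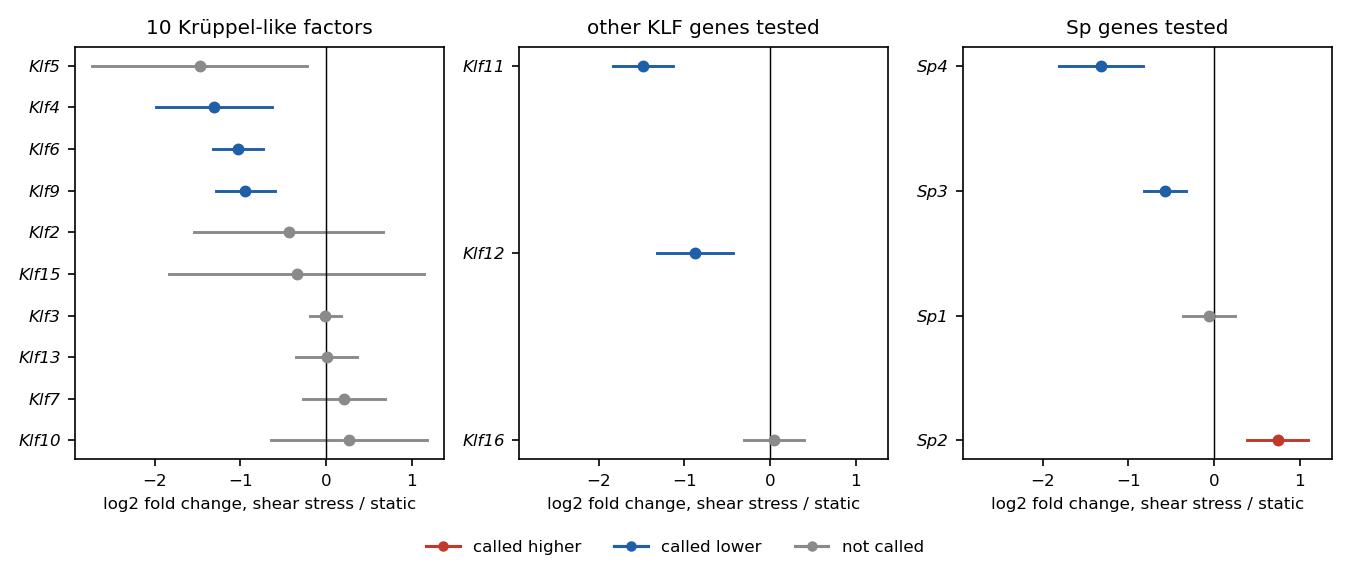
Log2 fold change of shear stress over static with its 95% interval (edgeR, 4 libraries per group) for the 10 members, the 3 other KLF genes tested and the 4 Sp genes tested. Blue marks genes called lower, red those called higher and grey those not called, and 1 gene of the 17, Sp2, is called higher. Of all tested genes 24.9% are called higher and 23.7% lower.

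The route that carries flow signals to Klf2 and Klf4 in endothelium changed in both directions. Of 14 genes listed, 13 were tested, 6 fell and 3 rose, with a median log2 fold change of -0.23. Over all tested genes 23.7% fell and 24.9% rose. The list joins genes that carry the signal with genes that oppose it, such as Hdac5. Its counts and median thus give no direction for the route. Map3k2, which encodes MEKK2, was at 61.4, 65.4, 70.2 and 48.8 CPM in static and 26.7, 22.6, 25.8 and 24.5 CPM in shear stress replicates (edgeR adjusted p = 9.28e-05). Map2k5, which encodes MEK5, fell from 26.3 ± 2.6 to 13.8 ± 0.718 CPM (edgeR adjusted p = 0.000219). Hdac5, a deacetylase that represses MEF2 targets, fell from 67.2 ± 12.3 to 35.4 ± 2.84 CPM (edgeR adjusted p = 0.000776). Map3k2, Map2k5 and Hdac5 were lower in all 4 pairs, as were 35.2% of all tested genes. Mapk7, which encodes ERK5 and was singled out after its value was seen, rose from 16.6 ± 2.53 to 24.1 ± 1.79 CPM (edgeR adjusted p = 0.0077). Map3k3, also of the list and singled out in the same way, was at 20.8 ± 4.36 and 20.9 ± 0.814 CPM and was not called (edgeR adjusted p = 0.982). With limma on TPM 3 of the 13 fell, in place of 6, and 3 rose. Over all genes limma on log2(TPM + 1) had 1198 of 10611 lower and 3682 higher. Leaving out each library gave 4 to 6 falls and 2 to 3 rises, and the calls lost included those of Ccm2 and Piezo1. Those fits had 2224 to 2681 lower and 2436 to 2841 higher genes over all.

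Genes that Klf2 or Klf4 raise in endothelium included rises in these libraries. Of 10 listed, 8 were tested, 4 rose and 1 fell, with a median log2 fold change of 0.75. Among all tested genes 24.9% rose and 23.7% fell. Thbd, the gene of the anticoagulant receptor thrombomodulin, was at 0.616, 0.931, 0.682 and 0.36 CPM in static and 4.28, 5.84, 1.85 and 4.93 CPM in shear stress replicates, 6.47-fold higher (edgeR adjusted p = 0.000764). Plpp3, a lipid phosphatase gene, was at 22.1, 21.2, 14.1 and 29.5 and 133, 106, 74.3 and 103 CPM, 4.78-fold higher (edgeR adjusted p = 0.000148). Neither gene's groups overlapped, and 23.7% of all tested genes were likewise higher without overlap. Cited2, which encodes a coactivator-binding factor, fell from 338 ± 55.4 to 165 ± 20.6 CPM (edgeR adjusted p = 0.000431). Nos3, the endothelial nitric oxide synthase gene, singled out after its value was seen, had 2 to 8 estimated counts in static and 11.4 to 21 in shear stress libraries (edgeR adjusted p = 0.0263). Its call was lost on leaving out static replicate 1, 2 or 4 or shear stress replicate 1 (adjusted p between 0.0658 and 0.072). With limma on filtered TPM 2 of the list rose, as the filter left out Nos3 and Thbd, and with limma and no filter 5 rose. Over all genes limma on log2(TPM + 1) had 3682 of 10611 higher with the filter and 4141 of 17141 without it.

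Genes that these factors lower in endothelium were split. Of 7 listed, 6 were tested, 2 fell and 2 rose, with a median of 0.18, where 23.7% of all tested genes fell and 24.9% rose. Angpt2, a vessel-destabilising ligand, was at 39.7, 54, 45.6 and 38 CPM in static and 11.5, 12.8, 10.8 and 8.89 CPM in shear stress replicates, 4.03-fold lower (edgeR adjusted p = 4.8e-05). Edn1, the endothelin gene, fell from 1.33 ± 0.302 to 0.319 ± 0.079 CPM (edgeR adjusted p = 0.000941). F3, which encodes tissue factor, was at 8.2, 5.7, 4.78 and 13.6 and 92.2, 62.4, 223 and 194 CPM, 17.6-fold higher (edgeR adjusted p = 0.000368). With limma on filtered TPM 1 of the list fell, as the filter left out Edn1, and with limma and no filter 2 fell. Over all genes limma on log2(TPM + 1) had 1198 of 10611 lower with the filter and 1612 of 17141 without it.

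**Figure D4:**
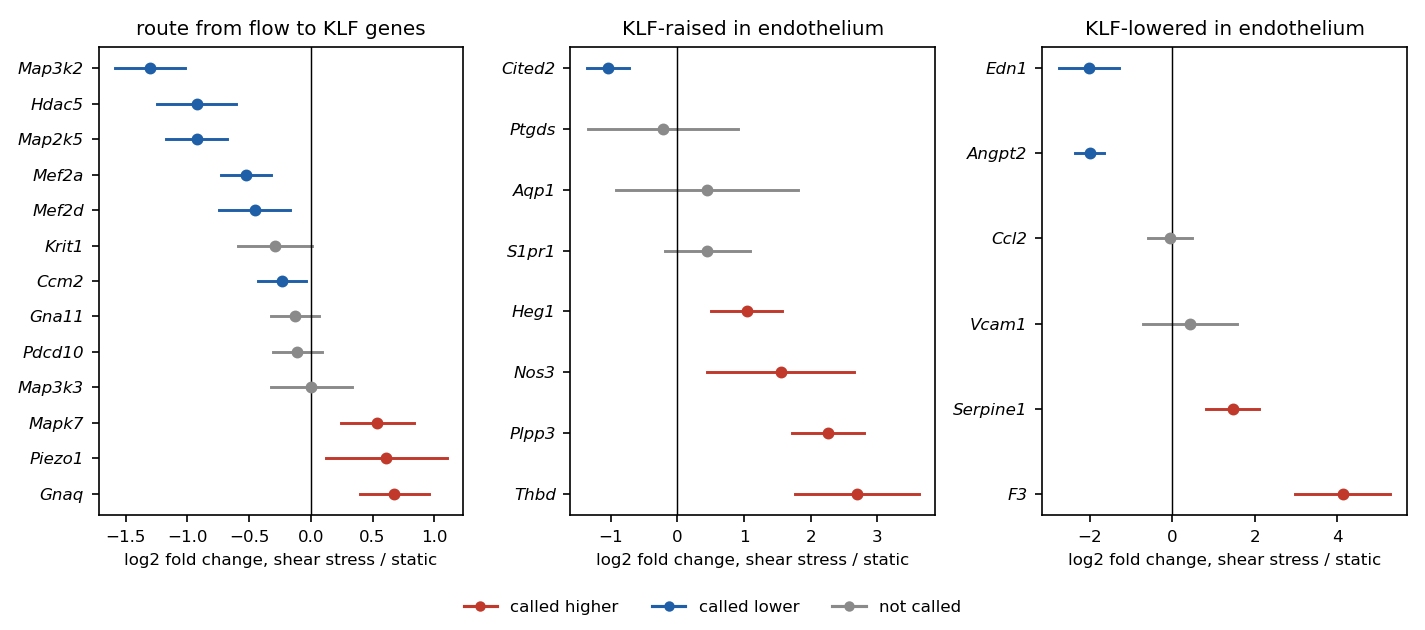
Log2 fold change of shear stress over static with its 95% interval (edgeR, 4 libraries per group) for tested genes of the endothelial route from flow to KLF genes, of genes that Klf2 or Klf4 raise there, and of genes that they lower there, each panel with its own axis. Red marks genes called higher (3, 4 and 2 genes), blue those called lower (6, 1 and 2 genes) and grey those not called. Of all tested genes 24.9% are called higher and 23.7% lower.

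Of 11 genes for proteins that act with KLFs, 10 were tested, 4 fell and 1 rose (5 and 2 with the replicate block), with a median of -0.23. All tested genes had 23.7% lower and 24.9% higher, or 31% and 30.1% with the block. The acetyltransferase genes led the falls. Crebbp fell from 42.3 ± 3.89 to 19.1 ± 1.31 CPM, Ep300 from 124 ± 25.6 to 62.5 ± 5.1 CPM and Kat2b from 85.2 ± 10.7 to 30.1 ± 10.7 CPM (edgeR adjusted p = 7.53e-05, 0.000575 and 0.00113). The 1 rise, of the corepressor gene Sin3a (from 28.9 ± 6.53 to 40.8 ± 4.67 CPM, edgeR adjusted p = 0.0305), was lost on leaving out any of 4 libraries, replicates 1 and 4 of the static group and replicates 2 and 4 of the shear stress group. Leaving out static replicate 2 gave 2 rises, as did leaving out shear stress replicate 1. Among the falls, that of Ctbp1 (edgeR adjusted p = 0.0489) was lost on leaving out any single library (adjusted p between 0.0516 and 0.162). It was also lost with upper quartiles, library totals, no filter and limma on TPM.

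Of 8 liver genes that Klf15 raises, all tested, 3 fell, against 23.7% of all tested genes, with a median of -0.60. With the replicate block 5 fell, against 31% of all tested genes. With limma on TPM 1 did, where 1198 of 10611 genes fell with limma on log2(TPM + 1). The filtered limma fits left out Ppargc1a. Otc, a urea cycle enzyme gene, fell from 112 ± 13.9 to 67 ± 11.2 CPM (edgeR adjusted p = 0.00203). Ppargc1a, a coactivator gene of gluconeogenesis, fell from 3.06 ± 1.64 to 0.846 ± 0.197 CPM (edgeR adjusted p = 0.00479, and 0.0759 with limma on unfiltered log2 TPM). Tat, which encodes tyrosine aminotransferase, was at 28.3 ± 7.74 and 15.8 ± 5.25 CPM (edgeR adjusted p = 0.0348), and 9 of its 17 alternatives lost the call (adjusted p between 0.054 and 0.129), among them the fits without static replicate 1, static replicate 3, shear stress replicate 2 or shear stress replicate 3. Klf15 itself was not called.

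Of 8 other genes that glucocorticoids induce, as they do Klf9, 2 rose and 1 fell, with a median of 0.02. The shares over all tested genes were 24.9% higher and 23.7% lower. Fkbp5, a cochaperone of the receptor, rose from 18.9 ± 3.74 to 63.6 ± 1.04 CPM (edgeR adjusted p = 5.5e-05). Errfi1, an inhibitor of the EGF receptor, rose from 323 ± 48.4 to 822 ± 182 CPM (edgeR adjusted p = 0.000363). Sgk1, a kinase gene that osmotic and serum signals also induce, fell from 55.2 ± 22 to 17.4 ± 6.88 CPM (edgeR adjusted p = 0.00306). Klf9 was lower and Fkbp5 higher in the shear stress library of all 4 pairs, as were 35.2% and 33.7% of all tested genes. With the replicate block or DESeq2 3 of the 8 fell, against 31% and 23% of all genes. On leaving out replicate 2 or 4 of the static group or replicate 3 of the shear stress group, 2 fell.

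The genes most like Klf2 and Klf4 over the 8 libraries were sought among 9329 genes whose mean reached 5 CPM, by Pearson r of log2 CPM. For Klf2 they were Selenoo (r = 0.906), Cux1 (0.903) and Aurkaip1 (0.891). For Klf4 they were Itih3 (0.975), Epha2 (0.97) and Mmut (0.955). These describe 8 libraries that fall into 2 groups and 4 pairs, and for Klf4 the likeness includes the difference between groups.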

How the data were processed

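RNA of 8 hepatocyte libraries was analysed, 4 static and 4 under shear stress, and the titles of the samples gave groups and replicates. Per the labels' protocols, RNA was extracted with TRIzol and sequenced on the DNBSEQ platform. HISAT, Bowtie2 and RSEM and the build GRCm38 (mm10) are named per the submitters' processing notes. Not given in the sources used here were versions, annotation and strand setting. The deposited read counts are expected counts, estimated by the authors, and 9.31% to 10.7% per library were not whole (tolerance 1e-09). The deposited TPM values, per the file headers, were used for abundance, and FPKM was not used.

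Expected counts were rounded, filtered with filterByExpr (11747 of 17276 genes kept), scaled with TMM factors and tested with the robust quasi-likelihood test of edgeR 4.0.16 in R 4.3.3, with Benjamini-Hochberg adjustment at 0.05. Standard errors and 95% intervals come from this fit. The script was tested on simulated counts. Library depth was 15067056 to 17935566 estimated counts.

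Same-numbered libraries deviated together from their group means (r = 0.679, 0.642, 0.56 and 0.467 over 8446 genes, against at most -0.0178 for different numbers). The numbers were thus taken as pairs for the within-pair differences and for the block. The titles number the replicates 1 to 4, as in the text, whereas the file headers number the same libraries 1, 3, 4 and 5 in both groups. What the numbers stand for is not given. The main fit left the pairing out, so its calls, standard errors, intervals and adjusted p-values do not use it. The fit with the replicate number as a block was an alternative. Other alternatives were DESeq2 1.42.0, other scalings, no filter, limma 3.58.1 on log2(TPM + 1) or log2(TPM + 0.1) and leaving out each library, 17 in all. Counts of the 12 pairs of libraries within a group differed by more than sampling noise (chi-square per degree of freedom at least 47.8).

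All 10 members are named. From each of the 14 gene lists up to 3 called genes with the smallest p are named, or the most abundant where none was called, and for Klf2 and Klf4 the 3 most similar genes. The members and lists were chosen with earlier results of these data known. Coordinates and promoters are from RefSeq tables (assembly GRCm38.p6), and 17229 of 17276 gene IDs were found there.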

Additional observations from a re-analysis of the deposited data

Results flagged for a closer look

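In 7 of 82 groups of 4 libraries checked, 1 library stood apart from the others by more than Dixon's 95% critical value, and chance flags about 1 in 20 groups. Klf2 was lowest in shear stress replicate 3, at 1.10 CPM against 3.12 to 3.50 CPM in the other 3 libraries. Klf9 was lowest in static replicate 4, at 44.9 CPM against 67.8 to 71.0 CPM. Klf13 was highest in replicate 3 of both groups, at 76.4 CPM against 48.4 to 52.0 CPM in static and 67.2 CPM against 52.4 to 54.8 CPM in shear stress libraries. Sp4 was lowest in static replicate 4, at 4.62 CPM against 8.01 to 8.26 CPM. Sp3 was lowest in shear stress replicate 2, at 38.9 CPM against 48.6 to 49.3 CPM. The endothelial marker Pecam1 was highest in shear stress replicate 1, at 3.94 CPM against 1.10 to 1.27 CPM.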

How the results depend on the processing

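The 3 lower and 0 higher members kept these counts in all 17 alternatives except for 4 lower with the replicate block, with DESeq2 and without static replicate 3, where Klf5 was added (adjusted p = 0.000395 with the block). With the block 3531 genes were higher and 3645 lower, against 2924 and 2783, and no other member's call changed. Lower genes numbered 1539 with library totals, 1198 and 1193 with limma on log2(TPM + 1) and log2(TPM + 0.1), and 1612 with limma and no filter. These fits do not use the TMM factors, which were 0.876 to 0.966 in static and 1.06 to 1.15 in shear stress libraries. What sets these factors apart, and their part in the numbers of lower genes, was not tested. Leaving out each library gave 2436 to 2841 higher and 2224 to 2681 lower genes. Several uncalled log2 fold changes turned sign. Klf3 was 0.13 with upper quartiles, 0.215 with library totals and 0.135, 0.137 and 0.135 with the limma fits, Klf13 was -0.00299 with DESeq2 size factors, -0.00248 with DESeq2 and -0.00365 without a filter, Cd68 was 0.0713 with library totals and 0.0368 with each limma fit, and Reln was 0.0624 with upper quartiles, 0.138 with library totals, 0.0453 with the block and 0.0614 with limma and no filter. Leaving out each library gave -0.0386 to 0.0319 for Klf3, -0.0548 to 0.567 for Klf10, -0.0811 to 0.174 for Klf13, -0.842 to 0.546 for Klf15, -0.4 to 0.103 for Cd68, -0.412 to 0.496 for Reln, -0.227 to 1.09 for Spp1 and -0.0765 to 0.154 for Klf16. The limma filter left out Klf15. Klf2 and Klf15 rest on 13 to 100 counts per library, and what sets the width of the members' intervals was not tested.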
